A study of Mus musculus with 4 samples.

Results

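Interstitial matrix and fibrosis genes were examined in kidneys of pristane-treated WT and Zbp1-KO mice as a set of 10 members, namely Col1a1, Col1a2, Col3a1, Fn1, Acta2, Tgfb1, Timp1, Vim, Ccn2 and Emilin2. They were chosen by name from the 54532 genes listed in each library, and all 10 were among the 14908 genes that passed the filter on low counts. Emilin2 was included because its counts had been seen to be lower in the Zbp1-KO libraries, so the genotype values of the 10 genes are given as a description, and nothing is read from any call among them. There were 2 libraries per group, one group from WT mice and one from mice that carry a CRISPR-Cas9 deletion of Zbp1 exons in all cells, both on a C57BL/6J background and described as female in the study. Both groups had been injected intraperitoneally with 500 µL of pristane when 8 weeks old, and the kidneys were collected 8 months later. Pristane is an oil used to provoke a lupus-like disease in mice, and Zbp1 encodes a sensor of left-handed Z-form nucleic acids. Littermate controls were not described. Per the study, WT mice were bought from an animal research centre, while the Zbp1 knockout line was made by a company. Genotype and animal source therefore cannot be told apart. Kidneys without pristane were not analysed here, so every value below is from injected animals. The labels do not say how many animals stand behind each library, so p-values measure the spread between these libraries only, and for one gene an exact two-sided permutation test of 2 libraries against 2 has 0.333 as its smallest p.

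The kidney interstitium is the space between tubules and vessels, where resident fibroblasts and pericytes lay down fibrillar collagens and fibronectin. In renal fibrosis, transforming growth factor beta drives these cells towards contractile, alpha-smooth muscle actin-positive myofibroblasts, which secrete collagen types I and III. Inhibitors of matrix-degrading enzymes, such as TIMP1, slow the removal of that matrix. EMILIN proteins are glycoproteins of the elastic fibre system that are deposited at the interface between elastin and microfibrils. Whole-kidney RNA is a mixture of all renal cell types, and fewer cells of one type cannot be told apart from less RNA per cell.

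The 4 libraries held 9878776 to 12921925 counts each, of which 49.5% to 61.5% came from mitochondrially encoded genes, leaving 4003417 to 5782924 other counts. Levels are given as CPM, the counts of a gene relative to the library's total, scaled by TMM factors. A floor of 3 counts corresponded to 0.221 to 0.323 CPM, and intervals and floors cover counting error only. The targeted gene Zbp1 had 94 counts in WT 1, 125 in WT 2, 18 in Zbp1-KO 1 and 0 in Zbp1-KO 2. The libraries carried the kidney's own transcripts, with 9 of 9 proximal tubule markers tested and a summed level of 7538 to 10740 CPM in WT and 9022 to 10887 CPM in Zbp1-KO. The sum was highest in Zbp1-KO 1, yet that library was the lowest for 6 of the 9 markers, against 27.7% of all tested genes. In the edgeR quasi-likelihood test, 2 of 14908 genes passed an adjusted p of 0.05, both higher in Zbp1-KO, and 578 had an unadjusted p under 0.05. Across genes, log2 CPM correlated at 0.938 between the WT libraries at 0.900 between the Zbp1-KO libraries and at 0.918 to 0.921 between libraries of different genotype, so the Zbp1-KO libraries were less alike than any pair across genotypes.

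None of the 10 matrix genes passed the adjusted threshold in the edgeR quasi-likelihood fit, where the background was 0.0134% of genes called in either direction and 0% called lower. At an unadjusted p under 0.05 there was 1, Emilin2, where 1.97% of tested genes were lower by this mark, and Emilin2 alone also passed with edgeR's exact test and with DESeq2, whereas limma-voom called 0. These calls rest on the same values by which Emilin2 was chosen and are no independent evidence. The log2 fold change of Zbp1-KO over WT was below 0 for 9 of 10 genes, against 50.6% of all tested genes, and above 0 for 1, Acta2, against 49.4%. It was at or below -1 for 2, Timp1 and Emilin2, against 4.23%, and its median was -0.48 against -0.01 over all tested genes. Both Zbp1-KO libraries lay below both WT libraries for 3 of the 10, Fn1, Timp1 and Emilin2, where 16.3% of tested genes did so and 32.3% did not overlap in either direction. For the other 7 the groups overlapped.

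**Figure D1:**
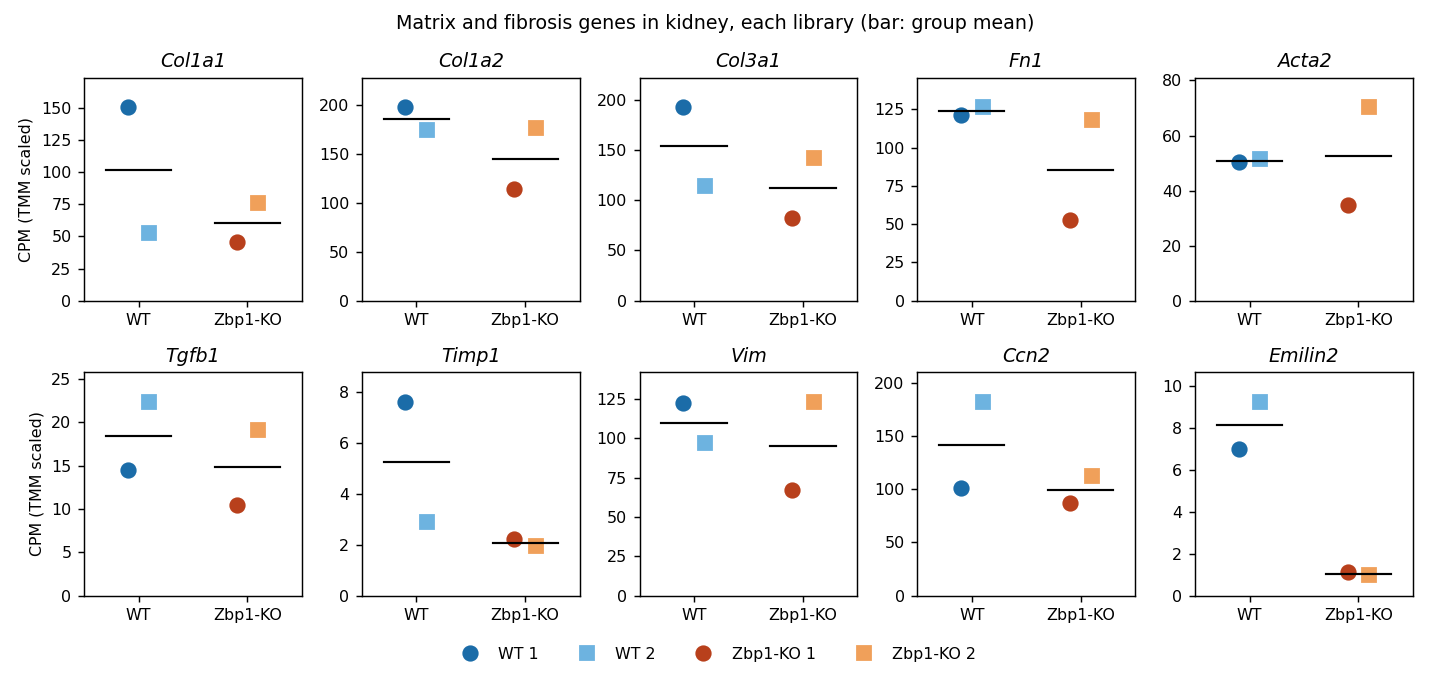
Level of each of the 10 genes in each library, in CPM on a linear axis that starts at 0 and has its own scale for each gene, with 1 point per library and a bar at the group mean. Emilin2 is the gene with the widest gap between groups, with WT points at 7.00 and 9.24 CPM and Zbp1-KO points at 1.11 and 0.969 CPM, and Zbp1-KO 1 is the lowest library for 8 of the 10 genes.

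Emilin2 encodes an extracellular glycoprotein of the EMILIN family and had the largest difference of the set. The gene (ENSMUSG00000024053) lies on the minus strand at chr17:71252172-71311978 in GRCm38. It had 87 counts in WT 1 and 108 in WT 2, against 15 in Zbp1-KO 1 and 9 in Zbp1-KO 2, which is 7.00 and 9.24 CPM against 1.11 and 0.969 CPM. The groups did not overlap, and the 2 libraries within each group differed by 1.32-fold in WT and 1.14-fold in Zbp1-KO. The Poisson 95% intervals were 5.60 to 8.63 and 7.58 to 11.2 CPM in WT, and 0.619 to 1.82 and 0.443 to 1.84 CPM in Zbp1-KO, and they cover counting error only, not the spread between kidneys. The mean was 8.12 ± 1.58 CPM (SD, n = 2) in WT and 1.04 ± 0.0966 CPM (SD, n = 2) in Zbp1-KO, a fitted difference of -2.95 ± 0.59 (SE) on the log2 scale, or 7.72-fold. Leaving out any single library gave -3.14 to -2.74. The Zbp1-KO values rest on 9 and 15 reads, and a transcript this scarce was the lowest of the 10 per length of exon.

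The 250 bases before a transcription start are shown for Emilin2, together with those of Timp1, Col3a1 and Ccn1, because these are the windows free of annotated exons that hold the TEAD string described next. The exon-free window of Tgfb1, which holds no match, is not printed. Sequences are from RefSeq on GRCm38.p6, and the table used here had an entry for 7 of the 10 matrix genes. The promoters of Col1a1, Fn1 and Ccn2 were not analysed here. The capitals mark letter strings that match known recognition sequences, searched by script: GGAATG, the core read by TEAD factors, and CAGAC, which holds the core read by SMAD factors, both on either strand, and TATAAA, the TATA box, on the gene's strand. On the reverse strand these read CATTCC and GTCTG. The Emilin2 window is chr17:71311012-71311261 on the minus strand, Timp1 is chrX:20869916-20870165 on the plus strand, Col3a1 is chr1:45311288-45311537 on the plus strand and Ccn1 is chr3:145649986-145650235 on the minus strand.
Emilin2: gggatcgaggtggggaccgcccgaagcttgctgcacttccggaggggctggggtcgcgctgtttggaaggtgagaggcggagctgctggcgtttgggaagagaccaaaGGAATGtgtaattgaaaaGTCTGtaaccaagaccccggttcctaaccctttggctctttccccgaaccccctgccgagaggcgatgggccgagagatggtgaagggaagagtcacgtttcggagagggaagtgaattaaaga
Timp1: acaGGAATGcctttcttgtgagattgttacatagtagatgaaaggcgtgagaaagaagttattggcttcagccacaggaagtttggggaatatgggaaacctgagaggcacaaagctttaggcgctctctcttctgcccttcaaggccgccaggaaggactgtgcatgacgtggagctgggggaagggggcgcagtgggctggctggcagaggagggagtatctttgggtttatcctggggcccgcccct
Col3a1: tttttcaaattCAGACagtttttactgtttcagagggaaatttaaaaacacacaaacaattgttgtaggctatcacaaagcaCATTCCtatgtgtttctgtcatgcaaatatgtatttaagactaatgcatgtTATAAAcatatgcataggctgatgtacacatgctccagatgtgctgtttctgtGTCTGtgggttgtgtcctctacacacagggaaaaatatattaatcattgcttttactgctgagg
Ccn1: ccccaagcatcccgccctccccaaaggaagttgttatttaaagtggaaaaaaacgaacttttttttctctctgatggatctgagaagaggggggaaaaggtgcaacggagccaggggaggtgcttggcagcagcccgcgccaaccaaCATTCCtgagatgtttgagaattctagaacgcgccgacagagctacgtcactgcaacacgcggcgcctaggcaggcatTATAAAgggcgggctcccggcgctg

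GGAATG stood 142 bases before the start in Emilin2 and 247 in Timp1, and its reverse-strand form stood 168 bases before the start in Col3a1 and 103 in Ccn1. Acta2, whose window overlaps exons of the annotation and is not printed, held it at 146. It occurs in 12.6% of the 32851 windows of this length in the table, and CAGAC in 42.2%. CAGAC or its reverse was present in Emilin2 at 124, in Col3a1 at 239 and 64, in Col1a2 at 175 and in Acta2 at 235. The printed Emilin2 window lies inside the annotated span of the gene, chr17:71252172-71311978. The window of a second, more upstream RefSeq start of Emilin2, chr17:71311557-71311806, overlaps annotated exons and is not printed. That window had 1 match to CAGAC or its reverse, at 200, and no match to the TEAD string. The TATA string, found in 7.59% of windows, stood at 117 in Col3a1, at 25 in Ccn1 and at 32 in Vim. The window of Tgfb1 held none of these strings, and the AP-1 string TGANTCA, present in 6.75% of windows on either strand, was in none of the members' windows. A match describes letters in the window and does not show that a factor bound there.

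Type I and type III collagens, the fibrillar collagens that give interstitial matrix its tensile strength, were represented by Col1a1, Col1a2 and Col3a1. Col1a1 (ENSMUSG00000001506, chr11:94936224-94953042, plus strand) encodes the alpha1 chain of type I collagen and was at 151 CPM in WT 1, 53.0 in WT 2, 45.6 in Zbp1-KO 1 and 75.7 in Zbp1-KO 2. WT 1 stood apart from the other 3 libraries, and the second WT library lay between the Zbp1-KO libraries, so the groups overlapped. The difference was -0.75 ± 0.39 (SE) on the log2 scale, and it was 0.18 without WT 1. Col1a2 (ENSMUSG00000029661, chr6:4504814-4541544, plus strand), the alpha2 chain of the same trimer, was at 198 and 174 CPM in WT and at 114 and 176 CPM in Zbp1-KO. Zbp1-KO 2 lay within the range of WT and only Zbp1-KO 1 was below it, with a difference of -0.36 ± 0.22 (SE). Col3a1 (ENSMUSG00000026043, chr1:45311538-45349706, plus strand), the single chain of type III collagen, was at 193 and 115 CPM in WT and at 82.4 and 142 CPM in Zbp1-KO, a difference of -0.46 ± 0.28 (SE). Here too the groups overlapped, with WT 1 highest and Zbp1-KO 1 lowest.

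The 2 chains of type I collagen did not keep one ratio across libraries. Col1a1 made up 43.2% of the counts of both genes in WT 1 (exact Clopper-Pearson 95% interval 41.8% to 44.7%), against 23.4% in WT 2 (21.8% to 25.0%), 28.6% in Zbp1-KO 1 (26.7% to 30.5%) and 30.0% in Zbp1-KO 2 (28.2% to 31.9%). Both Zbp1-KO shares lay between the WT shares, and the intervals of the Zbp1-KO libraries overlapped while those of the WT libraries did not.

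Fibronectin, encoded by Fn1 (ENSMUSG00000026193, chr1:71585520-71653200, minus strand), is the glycoprotein on which collagen fibrils assemble. It was at 121 and 127 CPM in WT, at 52.9 in Zbp1-KO 1 and at 118 in Zbp1-KO 2. The groups did not overlap, but Zbp1-KO 2 lay just under WT while the Zbp1-KO libraries themselves differed by 2.23-fold. The difference was -0.54 ± 0.29 (SE) and was -0.08 without Zbp1-KO 1 and -1.23 without Zbp1-KO 2.

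Acta2 and Vim mark contractile and mesenchymal cells. Acta2 (ENSMUSG00000035783, chr19:34241090-34255590, minus strand), alpha-smooth muscle actin, is present in vascular smooth muscle and myofibroblasts, and it was at 50.3 and 51.3 CPM in WT, 34.9 in Zbp1-KO 1 and 70.4 in Zbp1-KO 2. The WT libraries sat between the Zbp1-KO libraries, which differed by 2.02-fold. The difference, 0.05 ± 0.28 (SE), was the only one of the 10 above 0, and its sign turned negative under the replicate block and limma-voom, at -0.03 and -0.08. Vim (ENSMUSG00000026728, chr2:13573927-13582826, plus strand), the intermediate filament of mesenchymal cells, was at 123 and 97.3 CPM in WT and at 67.0 and 123 CPM in Zbp1-KO. The highest WT and the highest Zbp1-KO library were level, with a difference of -0.21 ± 0.26 (SE).

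The signalling members were Tgfb1 and Ccn2. Tgfb1 (ENSMUSG00000002603, chr7:25687002-25705077, plus strand), the ligand of the pathway, was at 14.5 and 22.4 CPM in WT and at 10.5 and 19.2 CPM in Zbp1-KO, with a difference of -0.32 ± 0.34 (SE). The groups overlapped, with WT 1 and Zbp1-KO 1 below the other two libraries. Ccn2 (ENSMUSG00000019997, chr10:24595442-24598683, plus strand), also called Ctgf, encodes a matricellular protein induced by TGF-beta and YAP/TEAD signalling. It was at 101 and 183 CPM in WT and at 87.2 and 112 CPM in Zbp1-KO, with a difference of -0.51 ± 0.26 (SE). Only WT 2 stood above the rest, and the difference was -0.03 without it. An opposite-strand gene, Gm15270, covers 23.2% of the exon bases of Ccn2 but had 3 to 12 counts per library.

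Timp1 (ENSMUSG00000001131, chrX:20870166-20874735, plus strand) encodes an inhibitor of matrix metalloproteinases and was scarce, with 95 and 34 counts in the WT libraries against 30 and 18 in the Zbp1-KO libraries. These are 7.64 and 2.91 CPM in WT against 2.21 and 1.94 CPM in Zbp1-KO. The groups did not overlap, although WT 2 was nearer to the Zbp1-KO libraries than to WT 1. The difference was -1.34 ± 0.68 (SE), and it was -0.49 without WT 1.

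**Figure D2:**
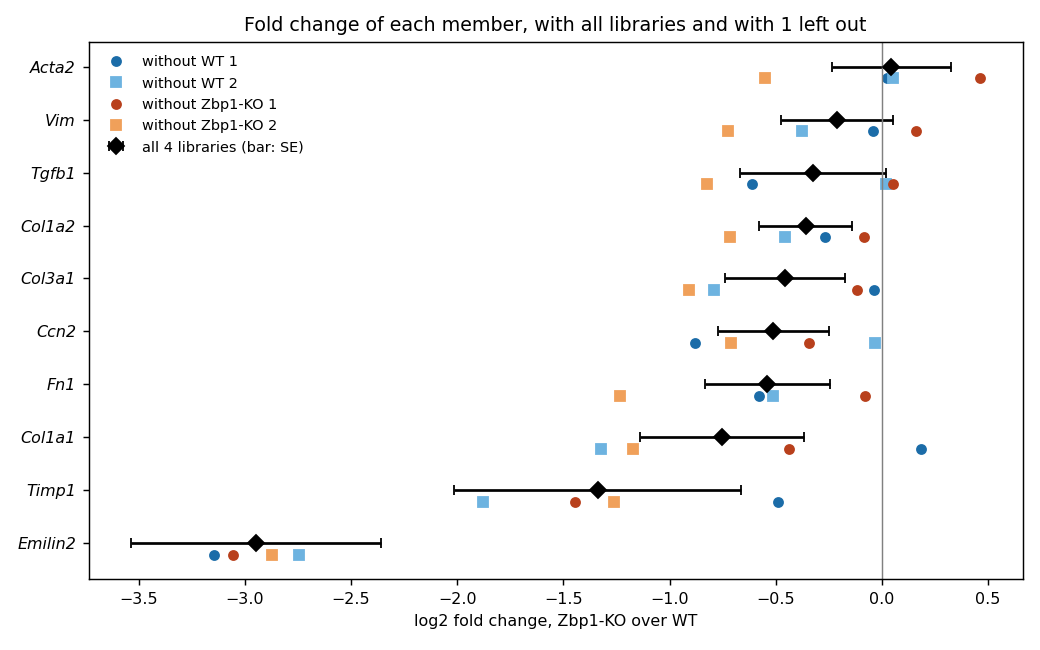
Log2 fold change of Zbp1-KO over WT for each of the 10 genes, with all 4 libraries (diamond, bar SE) and with each library left out in turn (coloured points). Emilin2 stays between -3.14 and -2.74, whereas Col1a1, Vim, Tgfb1 and Acta2 cross 0.

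The levels of the 10 genes were ordered per kilobase of exon, since longer transcripts collect more reads. Ccn2 was highest at a mean of 42.3 CPM per kb (30.5 to 63.9 over the libraries), followed by Acta2 at 23.6 (15.9 to 32.1) and Vim at 21.6 (14.1 to 26.0). The fibrillar collagens came next, Col3a1 at 13.6, Col1a2 at 13.3 and Col1a1 at 12.4 CPM per kb, then Fn1 at 8.96, Timp1 at 4.14, Tgfb1 at 3.30 and Emilin2 at 0.831 (0.176 to 1.68). Ccn2 was the highest and Emilin2 the lowest in each of the 4 libraries. Each pair of neighbours in this order overlapped in its range over the libraries, except Tgfb1 (2.08 to 4.44) and Emilin2.

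The members differed in which library was low. Zbp1-KO 1 was the lowest library for 8 of the 10, the exceptions being Timp1 and Emilin2, where Zbp1-KO 2 was lowest. Among all tested genes it was the lowest for 27.7%. WT 1 was the highest for Col1a1, Col1a2, Col3a1 and Timp1 (23.1% of tested genes), both at once held for the 3 collagen genes (8.12% of tested genes), and the highest was Zbp1-KO 2 for Acta2 and Vim, and WT 2 for the others. The summed level of the 10 was 967 and 834 CPM in WT, 498 in Zbp1-KO 1 and 841 in Zbp1-KO 2, so that Zbp1-KO 2 was level with the second WT library. Without Zbp1-KO 1 the median log2 fold change of the 10 was -0.10 and 7 of 10 were below 0, and without Zbp1-KO 2 these values were -0.87 and 10 of 10. Over the 4 libraries, the closest pair of profiles was Col1a2 and Vim, at a Euclidean distance of 0.238 between log2 CPM deviations from each gene's mean. Acta2 and Vim stood at 0.355, Col3a1 and Vim at 0.359 and Tgfb1 and Ccn2 at 0.402. Emilin2 was 2.05 or more from each of the other members, up to 2.87 from Acta2.

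The same distance was used to find the genes most like the set among 14199 genes with a mean of at least 1 CPM. For the mean profile of the 10 they were Mgst3 at 0.0703, Jarid2 at 0.0843, Fam227a at 0.108, Fastkd3 at 0.113 and Vsig10 at 0.122, and 662 genes lay within 0.5. Mgst3, a microsomal glutathione S-transferase, was at 107 and 96.3 CPM in WT and at 51.3 and 74.2 CPM in Zbp1-KO. For Emilin2 the nearest were Zfp951 at 0.577, Cyp27b1 at 0.629, Calml3 at 0.701, Arc at 0.726 and Chst12 at 0.773, and 0 genes lay within 0.5. Cyp27b1, the renal enzyme that activates vitamin D, was at 2.01 and 3.76 CPM in WT and at 0.516 and 0.215 CPM in Zbp1-KO. On the log2 scale Zfp951 differed by -3.06 ± 1.24 (SE), Cyp27b1 by -2.91 ± 1.11 and Calml3 by -2.68 ± 0.79, against -2.95 ± 0.59 for Emilin2. Arc differed by -2.35 ± 0.83 and Chst12 by -2.36 ± 1.00. The mean of 10 genes and 1 scarce gene are unlike profiles, so the 662 and the 0 cannot be compared.

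The wider matrix pathway was read through 8 lists of other genes, 128 in all without the 10 members, of which 118 were tested. By edgeR's quasi-likelihood test 0 were called (0.0134% of all tested genes), and 3 higher and 5 lower had an unadjusted p under 0.05, where 1.91% and 1.97% of all tested genes did. The exact test of edgeR, DESeq2 and limma-voom each called 1, Ccn1. The log2 fold change was below 0 for 82 of 118 with a median of -0.12, against 50.6% and -0.01 over all tested genes. The median was -0.06 without WT 2 (68 of 119 below 0) and without Zbp1-KO 1 (72 of 122), -0.21 without WT 1 and -0.23 without Zbp1-KO 2. Both Zbp1-KO libraries lay below both WT libraries for 17 (16.3% of all tested genes) and above for 12 (16%). Zbp1-KO 1 was the lowest library for 53 of the 118.

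**Figure D3:**
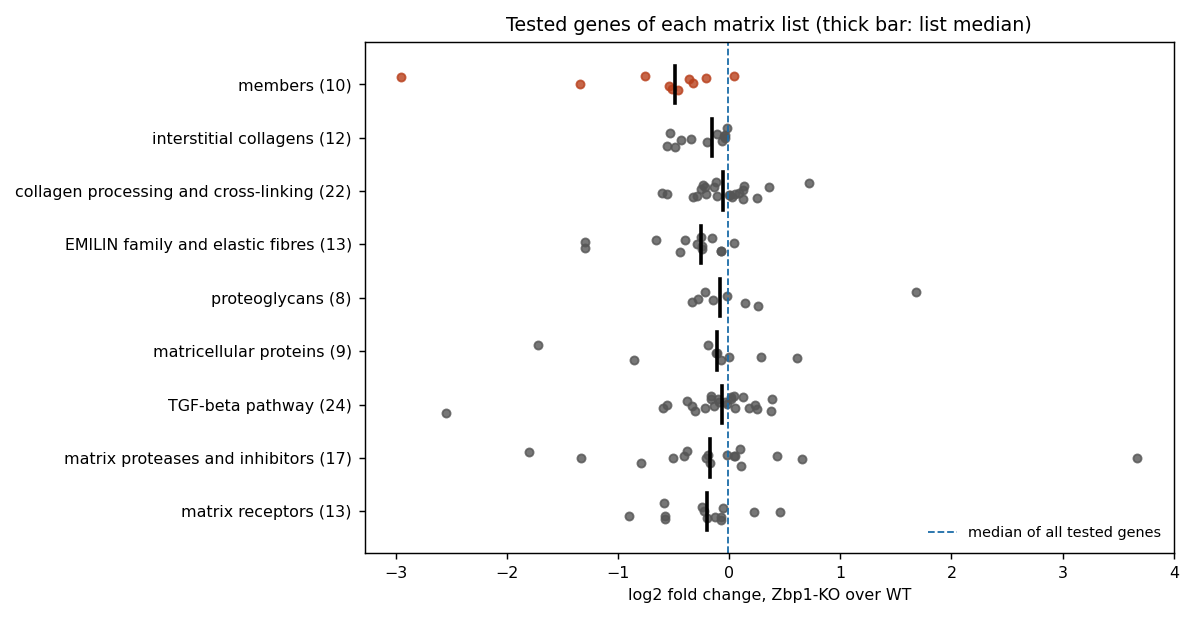
Log2 fold change of Zbp1-KO over WT for each tested gene of the 8 pathway lists and the 10 members, 1 point per gene, with the median of each list as a bar. The members' median is -0.48 and the list medians lie between -0.25 and -0.05.

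Among interstitial collagens, 12 of 14 were tested and all 12 log2 fold changes were below 0, with a median of -0.15. Without Zbp1-KO 1, 13 were tested, 6 were below 0 and the median was 0.05. Col14a1 and Col27a1 were the most abundant, with differences of -0.03 ± 0.25 and -0.20 ± 0.22 (SE). Col5a1, the chain that nucleates type I fibrils, was at 39.5 and 31.0 CPM in WT and at 23.2 and 24.7 CPM in Zbp1-KO, a difference of -0.56 ± 0.23 (SE, edgeR adjusted p = 0.999). Its groups did not overlap, unlike those of Col1a1, Col1a2 and Col3a1. Col8a1, a short-chain collagen, was at 2.17 and 2.99 CPM in WT and at 1.55 and 2.15 CPM in Zbp1-KO. Of the genes that process and cross-link collagen, 22 of 23 were tested and 11 were below 0 and 11 above. Their median was -0.05, and 0.03 without Zbp1-KO 1. Loxl4, a lysyl oxidase that cross-links collagen, was at 7.40 and 6.76 CPM in WT and at 10.7 and 12.7 CPM in Zbp1-KO, and P3h1, a collagen prolyl hydroxylase, differed by -0.56 ± 0.35 (SE) without overlap of the groups. The abundant P4hb and Pcolce differed by 0.09 ± 0.18 and -0.14 ± 0.19 (SE).

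The EMILIN family and elastic fibre list bears on Emilin2 directly. Of its 15 genes 13 were tested, 12 were below 0 and the median was -0.25, and with a library left out 8 to 11 of 13 were below 0. Emilin1, the founding member of the family, was at 61.1 and 86.0 CPM in WT and at 52.9 and 70.7 CPM in Zbp1-KO, a difference of -0.25 ± 0.23 (SE) with overlapping groups, and Emilin3 was at 0 in all 4 libraries. Eln, the elastin core of the fibre, was at 21.8 and 29.2 CPM in WT and at 17.6 and 19.8 CPM in Zbp1-KO, a difference of -0.45 ± 0.25 (SE, edgeR adjusted p = 0.999). Fbln5, which links elastin to cells, was at 184 and 314 against 164 and 243 CPM, and Mmrn2, an endothelial member of the EMILIN family, was at 22.3 and 25.1 against 19.7 and 20.3 CPM. The lowest value of the list, chosen after its values were seen, was -1.30 for Fbln2, a fibulin, with 184 counts in WT 1, 25 in WT 2, 7 in Zbp1-KO 1 and 61 in Zbp1-KO 2. Its groups overlapped, and every value of the list was nearer to 0 than the -2.95 of Emilin2. Of the proteoglycans, 8 of 9 were tested and 5 were below 0, with a median of -0.08 that turned to 0.10 without WT 2 and 0.03 without Zbp1-KO 2. Fmod, fibromodulin, which binds fibrillar collagen, was at 3.14 and 1.88 CPM in WT and at 5.46 and 10.8 CPM in Zbp1-KO, a difference of 1.68 ± 0.56 (SE, edgeR adjusted p = 0.999). The more abundant Bgn and Dcn differed by -0.15 ± 0.18 and -0.22 ± 0.24 (SE).

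Matricellular proteins modulate cell adhesion without building the fibres. Of 10 listed, 9 were tested, 7 were below 0 and the median was -0.11, or 0.04 without Zbp1-KO 2. Ccn1, also called Cyr61 and the family member nearest to Ccn2, was at 48.4 and 39.4 CPM in WT and at 12.6 and 14.1 CPM in Zbp1-KO, with no overlap and a narrow spread within each group. Its difference was -1.72 ± 0.24 (SE) with an edgeR adjusted p = 0.0531, just outside the threshold. Over 13 alternatives its adjusted p ran from 7.11e-08 to 0.603 and it was called in 10, the exceptions being RLE scaling, upper-quartile scaling and the fit without WT 1, which gave -1.57. Ccn1 is also one of 19 immediate-early genes, which are transcribed rapidly after a stimulus. Of the 18 tested, 17 were below 0 with a median of -1.14, and 0 were called by edgeR's quasi-likelihood test. In the same test 12 were lower at an unadjusted p under 0.05, where 1.97% of all tested genes were. The summed level of the list was 795 CPM in WT 1 and 387 in WT 2, against 235 and 254 CPM in the Zbp1-KO libraries. The part of that shift in the value of Ccn1 was not tested. Ccn2, by contrast, had overlapping groups. Thbs2, a thrombospondin, was at 6.27 and 7.36 against 8.41 and 8.19 CPM. Spp1, osteopontin, and Sparc, a collagen-binding glycoprotein, differed by -0.11 ± 0.19 and -0.12 ± 0.19 (SE).

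In the TGF-beta pathway, all 24 listed genes were tested, 14 were below 0 and the median was -0.06. The other ligands, Tgfb2 and Tgfb3, were scarce and differed by -0.34 ± 0.84 and -0.22 ± 0.75 (SE), and the receptors Tgfbr1 and Tgfbr2 differed by 0.23 ± 0.21 and -0.14 ± 0.22 (SE). These 4 are named for their roles as ligands and receptors and were picked after their values were seen. Among targets, Tgfbi, a TGF-beta-induced matrix protein, was at 39.4 and 36.1 CPM in WT and at 25.5 and 24.6 CPM in Zbp1-KO, a difference of -0.59 ± 0.21 (SE, edgeR adjusted p = 0.999). The abundant Eng, a co-receptor, and Ltbp4, which tethers latent TGF-beta to the matrix, differed by -0.09 ± 0.22 and -0.30 ± 0.28 (SE).

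Of the matrix proteases and their inhibitors, 17 of 19 were tested and 10 were below 0, with a median of -0.17 that was 0.03 without WT 2. Timp3 and Plau, the most abundant, differed by -0.01 ± 0.19 and 0.06 ± 0.20 (SE), and their groups overlapped, whereas those of Timp1 did not. Timp4 was at 0 and 0.257 CPM in WT, at or under the floor, and at 1.33 and 2.15 CPM in Zbp1-KO. Mmp12, macrophage elastase, was at 3.38 and 2.39 against 1.70 and 0.539 CPM. Of the matrix receptors, 13 of 14 were tested and 11 were below 0, with a median of -0.20. Itga1, the alpha subunit of a collagen-binding integrin, was at 62.2 and 73.3 CPM in WT and at 87.4 and 98.9 CPM in Zbp1-KO, a difference of 0.46 ± 0.19 (SE, edgeR adjusted p = 0.999). Ddr2, a receptor tyrosine kinase for fibrillar collagen, was at 22.8 and 38.7 against 20.6 and 20.6 CPM. The abundant Itgb1 and Sdc4 differed by -0.13 ± 0.19 and -0.05 ± 0.17 (SE).

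The cells that make most of this matrix were followed with separate marker lists. The fibroblast and pericyte markers, 13 of 14 tested, summed to 220 and 265 CPM in WT and to 233 and 253 CPM in Zbp1-KO, and their median log2 fold change was 0.07. The smooth muscle markers, 10 of 10 tested, summed to 248 and 268 CPM in WT and to 225 and 275 CPM in Zbp1-KO, with a median of 0.03. In both lists the groups overlapped, and the smooth muscle list, like Acta2, was lowest in Zbp1-KO 1 and highest in Zbp1-KO 2. Neutrophil and B cell lists were highest in WT 1. Neutrophil and platelet markers, 7 of 9 tested, were highest in WT 1, at 82.0 CPM, against 38.2 in WT 2, 37.6 in Zbp1-KO 1 and 51.0 in Zbp1-KO 2, with Ly6g and Mpo at 0 in all 4. B and plasma cell markers, 5 of 7 tested, were at 779 CPM in WT 1, 187 in WT 2, 223 in Zbp1-KO 1 and 398 in Zbp1-KO 2. Other lists had summed levels that did not overlap between genotypes, where 32.3% of all tested genes taken singly did not overlap in either direction. Within these lists the groups still overlapped for 1 of 8 fat, 5 of 7 T cell and 4 of 8 collecting duct genes. They also overlapped for 3 of 6 podocyte and 4 of 6 tubular injury genes, and the other tubular injury genes went 1 each way. Fat markers, 8 of 10 tested, were at 91.8 and 125 CPM in WT and at 279 and 253 CPM in Zbp1-KO, with 8 of 8 log2 fold changes above 0 and 1 gene, Cfd (adipsin), called higher by edgeR. T cell markers, 7 of 9 tested, were at 14.96 and 10.61 CPM in WT and at 26.5 and 19.8 CPM in Zbp1-KO, with 7 of 7 above 0, a median of 0.89 and 0 called. Collecting duct markers, 8 of 8 tested, were at 1155 and 1291 CPM in WT and at 930 and 719 CPM in Zbp1-KO, with 6 of 8 below 0, 0 called and 3 lower at an unadjusted p under 0.05. Podocyte markers, 6 of 6 tested, were at 113 and 113 CPM in WT and at 135 and 164 CPM in Zbp1-KO. Their log2 fold changes were above 0 for 5 of 6, and 0 were called. Tubular injury genes, 6 of 8 tested, were at 233 and 201 CPM in WT and at 235 and 240 CPM in Zbp1-KO. Macrophage and dendritic cell markers, 9 of 10 tested, overlapped, at 385 and 252 CPM in WT and at 364 and 360 CPM in Zbp1-KO. The part of these cell types in the values of the 10 matrix genes was not tested.

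**Figure D4:**
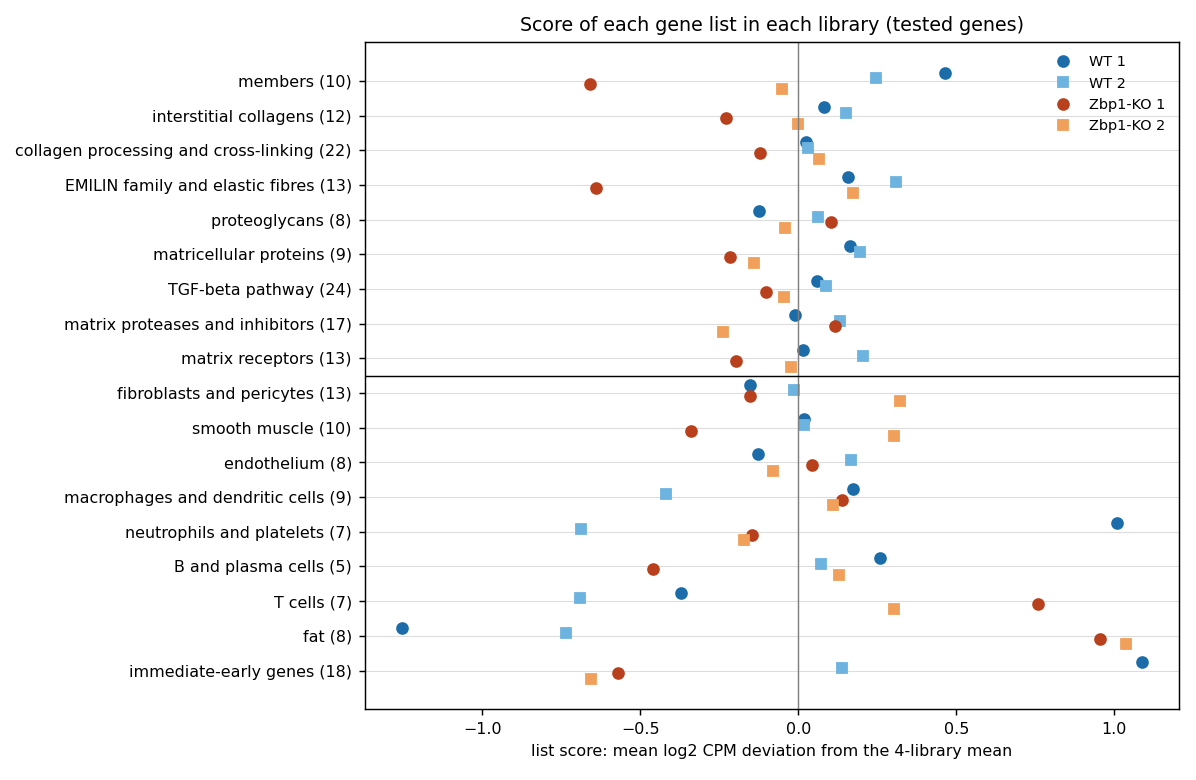
Score of each gene list in each library, as the mean over its tested genes of the log2 CPM deviation from the 4-library mean, with 1 point per library and the number of tested genes beside the list's name. The members score 0.46 and 0.25 in WT 1 and WT 2, -0.66 in Zbp1-KO 1 and -0.05 in Zbp1-KO 2, and the EMILIN and elastic fibre list is also lowest in Zbp1-KO 1.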

How the data were processed

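RNA of 4 pristane-treated mouse kidneys was measured, with groups and replicate numbers taken from the sample titles. Per the study's methods, the authors extracted RNA with Trizol, selected polyadenylated RNA, made strand-specific TruSeq libraries for paired-end HiSeq sequencing. Reads were trimmed with Trimmomatic and aligned with HISAT2, and pairs with a unique position were assigned to genes by featureCounts, on mm10 per the submitters' processing notes. Versions, annotation release and the strand setting of the counting are not given in the sources used here, so reads of overlapping genes on opposite strands may be counted together, and unique mapping lowers genes with near-identical copies. The deposited values are raw counts per Ensembl gene, 1 column per library. Of 54532 identifiers, 54495 matched GENCODE M21 on GRCm38, which gave symbols, positions and exon lengths (the union of a gene's exons, not one transcript).

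Genes were filtered with filterByExpr of edgeR 4.0.16 in R 4.3.3 (minimum count 10, minimum total 15), scaled by TMM and tested with the edgeR quasi-likelihood test, Zbp1-KO against WT, with Benjamini-Hochberg adjustment over 14908 genes at 0.05, in place of edgeR's exact test, which was an alternative. The SE was taken from the fold change and its F statistic. Profile distances used log2 CPM with a prior count of 2. Alternatives were RLE and upper-quartile scaling, all genes with at least 1 count, a mean of at least 1 CPM, a replicate block, edgeR's exact test, DESeq2 1.42.0, limma-voom (limma 3.58.1), mitochondrially encoded genes left out, an adjusted p of 0.1, and each library left out, where the lone library is assumed to vary like the other group.

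The members and lists were chosen with earlier results of these data known. Besides the 10 members and Zbp1, the genes named were the 2 most abundant of each pathway list, up to 2 with the largest non-overlapping difference at a mean of at least 1 CPM, called genes, and the 5 nearest profiles, and 1 gene that this rule names is not reported here. Depth and floors are given with the values. Promoter letters came from RefSeq's table for GRCm38.p6.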

Additional observations from a re-analysis of the deposited data

How the results depend on the processing

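With all 4 libraries, every alternative kept the 10 members within 1 SD of the replicates of their value, and only Acta2 changed sign, to -0.03 under the replicate block and -0.08 with limma-voom. With 1 library left out, 7 of 40 single values moved by more than that SD. Emilin2 stayed between -3.14 and -2.74, and the members' median ran from -0.87 without Zbp1-KO 2 to -0.10 without Zbp1-KO 1. The number of members called was 0, and 1, Emilin2, with all genes of at least 1 count, edgeR's exact test or DESeq2. With a library left out, Fn1 ran from -1.23 without Zbp1-KO 2 to -0.08 without Zbp1-KO 1. Leave-one-out ranges crossed 0 for Col1a1 (-1.32 to 0.18), Acta2 (-0.55 to 0.46), Vim (-0.72 to 0.16) and Tgfb1 (-0.82 to 0.05). They also did for Col14a1 (-0.35 to 0.30), Col27a1 (-0.55 to 0.079), P4hb (-0.048 to 0.20), Pcolce (-0.31 to 0.0048), Fbln5 (-0.63 to 0.14), Emilin1 (-0.49 to 0.0072), Dcn (-0.65 to 0.11), Spp1 (-0.29 to 0.035), Sparc (-0.33 to 0.049), Eng (-0.33 to 0.15), Ltbp4 (-0.82 to 0.068), Plau (-0.24 to 0.28), Timp3 (-0.19 to 0.16) and Itgb1 (-0.33 to 0.095). The cause was not tested.

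Over all genes, 2 were called, against 41 with all genes of at least 1 count, 14 with edgeR's exact test, 9 with DESeq2, 7 with limma-voom, 4 without mitochondrially encoded genes and 0 to 37 with a library left out (0 without WT 1, 20 without WT 2, 8 without Zbp1-KO 1 and 37 without Zbp1-KO 2). Of the pathway genes, 0 were called, against 2 with all genes of at least 1 count (Ccn1 among them), 1 (Ccn1) with a mean of at least 1 CPM, the replicate block, the exact test, DESeq2, limma-voom, mitochondrially encoded genes left out or an adjusted p of 0.1, and 0 to 2 with a library left out. The replicate block called 11 genes and no member. The deviations of same-numbered samples from their group means correlated at 0.00399 across genes (2 pairs). With 2 libraries per group this is a single contrast, so it cannot tell whether the numbers mark a pairing. The leave-one-out medians of the interstitial collagens ran from -0.35 to 0.05, turning above 0 without Zbp1-KO 1. Medians also turned above 0 for collagen processing (0.03 without Zbp1-KO 1), proteoglycans (0.10 without WT 2, 0.03 without Zbp1-KO 2), matricellular proteins (0.04 without Zbp1-KO 2) and proteases (0.03 without WT 2). With 4003417 to 5782924 counts outside mitochondrially encoded genes, differences in genes as scarce as Emilin2 and Timp1 rest on few reads.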
